A study of Mus musculus with 72 samples.

Results

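The small RNA processing machinery is the set of host proteins that turn a hairpin RNA into a short guide RNA and use that guide to silence messenger RNAs. It was examined here through 10 genes chosen by their role in it: Drosha, Dgcr8, Xpo5, Dicer1, Tarbp2, Ago1, Ago2, Ago3, Ago4 and Tnrc6a. Each was found by matching the Ensembl identifiers of the 6 tissue tables to GENCODE M21 symbols, so the set is 10 of 36047 mouse gene identifiers, and all 10 passed the filter on low values in all 6 tissues. The study placed EGFR DEL19 transgenic mice on doxycycline for 25 days, which gives lung tumours, and then gave them intravenous injections of a DNA circuit at 10 mg/kg every 2 days, 7 times in all, before harvest at day 14. RNA sequencing covered tumours of the lung and 5 organs (lung, liver, kidney, spleen, thymus), with 12 libraries a tissue and 72 in all.

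There were 3 circuits, each with 4 libraries in each tissue. CMV-GE11-siRE carries an siRNA against EGFR together with GE11, a peptide that binds EGFR, CMV-siRE carries the siRNA without the peptide, and CMV-scrR carries a scrambled RNA and is the control. CMV is a viral promoter that many cell types read, so the circuit is transcribed by the animal's own cells. All 3 groups share the transgene, the doxycycline and the injections, and no uninjected group was analysed here. A difference between circuits is therefore a difference between a circuit with the siRNA and a circuit with a scrambled RNA, not between circuit and no circuit. The sources used here give neither the promoter that drives the transgene nor the age of the mice. The labels do not state whether each library is a different animal, and p-values then reflect just the variation among these libraries, which may be technical.

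A microRNA starts as a hairpin within a longer transcript. In the nucleus the Microprocessor, which is the RNase Drosha with its RNA-binding partner Dgcr8, cuts the hairpin out, and exportin 5, the product of Xpo5, carries it to the cytoplasm. There Dicer1 removes the loop with the help of Tarbp2, and 1 strand is loaded into an Argonaute protein. Argonautes silence through the GW182 proteins, such as that of Tnrc6a, which recruit the enzymes that shorten and decap the bound mRNA, and Ago2 is the Argonaute that can cut a perfectly matched target. Hairpin RNAs made from injected DNA depend on the same proteins, and Dicer1 is also known to be needed for normal T cell development in mice.

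The genes lie on 6 mouse chromosomes in the GENCODE M21 annotation of GRCm38. Ago3, Ago1 and Ago4 are neighbours on the minus strand of chromosome 4, at 126331704 to 126429556, 126435012 to 126468583 and 126489541 to 126533472. Chromosome 15 holds Drosha (12824815 to 12935291, plus strand), Ago2 (73095844 to 73184935, minus strand) and Tarbp2 (102518192 to 102523676, plus strand). Tnrc6a is on chromosome 7 (123123885 to 123195296, plus strand), Dicer1 on chromosome 12 (104687742 to 104751952, minus strand), Dgcr8 on chromosome 16 (18253948 to 18289246, minus strand) and Xpo5 on chromosome 17 (46202782 to 46243598, plus strand). Their merged exons run from 4549 bases in Tarbp2 to 16750 bases in Dicer1. The Argonaute paralogues are alike in protein but little alike in transcript. Of the stretches of 50 bases in the merged exons, 125 of 8158 in Ago1, 121 of 16562 in Ago3, 4 of 13982 in Ago2 and 0 of 6898 in Ago4 also occurred in another of the 4 genes.

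The Dgcr8 messenger RNA is itself known to be a substrate of the Microprocessor. A hairpin annotated as microRNA 1306 lies wholly inside a coding exon of Dgcr8, at chr16:18284239-18284317 on the minus strand of GRCm38.p6. It is shown because Drosha and Dgcr8 are compared within libraries below. The hairpin is from RefSeq, with its 5p and then its 3p product in capitals, and in the mature sequences the capitals mark the seed, bases 2 to 8.
microRNA 1306 hairpin: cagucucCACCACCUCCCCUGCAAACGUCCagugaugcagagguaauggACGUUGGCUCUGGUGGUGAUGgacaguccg
mmu-miR-1306-5p: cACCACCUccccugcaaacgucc
mmu-miR-1306-3p: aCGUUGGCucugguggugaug
The gene tables hold no row for this hairpin, so its own level was not measured. The sources used here name no counter or annotation, so whether a read over it counted for Dgcr8 is not known.

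RefSeq gave promoter windows from 250 bases before to 50 bases after the start (GRCm38.p6) for 9 of the 10 genes, with 2 for Ago1. Across these 10 windows the GC content was 44.7% to 83.3%, against a median of 52.7% over 32851 mouse windows of the same length, and all but that of Tnrc6a were above this median. A GC box, searched as GGGCGG on either strand with overlapping matches counted singly, was in 8 of 10, against 35.7% of all windows. CCAAT on either strand was in 6 of 10, against 37.4%, and TATAAA on either strand was in 0 of 10, against 13.6%. The 4 windows printed are those of the genes whose differences between circuits are described most closely below, and the capitals mark GC boxes.
Dicer1 promoter, chr12:104751903-104752202, minus strand: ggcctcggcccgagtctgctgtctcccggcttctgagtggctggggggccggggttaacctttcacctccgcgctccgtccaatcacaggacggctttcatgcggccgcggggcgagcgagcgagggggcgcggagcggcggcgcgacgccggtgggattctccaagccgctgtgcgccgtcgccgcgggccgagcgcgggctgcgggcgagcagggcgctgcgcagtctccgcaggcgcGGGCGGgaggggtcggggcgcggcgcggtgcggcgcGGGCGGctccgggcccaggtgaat
Drosha promoter, chr15:12824565-12824864, plus strand: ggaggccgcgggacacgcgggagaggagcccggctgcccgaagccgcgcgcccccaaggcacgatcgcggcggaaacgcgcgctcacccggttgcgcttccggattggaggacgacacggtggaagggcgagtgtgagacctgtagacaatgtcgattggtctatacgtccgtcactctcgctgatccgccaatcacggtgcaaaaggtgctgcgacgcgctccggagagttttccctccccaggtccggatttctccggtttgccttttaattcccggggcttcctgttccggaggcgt
Ago4 promoter, chr4:126533409-126533708, minus strand: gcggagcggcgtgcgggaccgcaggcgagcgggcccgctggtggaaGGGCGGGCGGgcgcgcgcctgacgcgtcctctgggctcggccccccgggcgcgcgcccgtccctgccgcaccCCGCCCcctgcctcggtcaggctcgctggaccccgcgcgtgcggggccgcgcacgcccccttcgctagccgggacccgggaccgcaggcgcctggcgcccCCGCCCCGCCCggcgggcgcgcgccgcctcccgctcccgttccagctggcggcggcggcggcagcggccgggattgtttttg
Tnrc6a promoter, chr7:123123635-123123934, plus strand: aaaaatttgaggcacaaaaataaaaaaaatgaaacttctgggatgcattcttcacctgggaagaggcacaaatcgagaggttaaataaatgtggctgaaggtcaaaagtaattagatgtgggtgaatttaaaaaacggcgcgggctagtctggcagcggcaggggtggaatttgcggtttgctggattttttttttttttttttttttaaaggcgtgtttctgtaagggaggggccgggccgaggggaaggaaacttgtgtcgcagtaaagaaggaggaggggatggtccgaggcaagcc
Ago4 had the highest GC content of the set, 83.3% with 5 GC boxes, and Tnrc6a the lowest, 44.7% with none. Dicer1 had 77.3% and 2 GC boxes, while Drosha had 64.3% and none of these letters. A match is a description of the sequence and was not tested as a binding site.

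The deposited values are read counts divided by a size factor, separately in each tissue, so they compare libraries within a tissue. Approximate depth was 12.2 M to 20.9 M per library with a median of 19.2 M, where M stands for mega. This depth was inferred as the column total over a recurring step among the low values, taken as a single read, because counts were not recovered. Human EGFR in tumour is the transcript the siRNA is aimed at. It was 91.2, 79.8, 39.2 and 132.5 with CMV-GE11-siRE, 890, 451.6, 717.7 and 1324 with CMV-siRE, and 2767, 1992, 4025 and 3215 with CMV-scrR. On this deposited scale the groups did not overlap. The column totals of these tumour libraries ran from 5.87 M to 43.81 M. Relative to its column total, CMV-GE11-siRE replicate 4 (132.5 in 6.64 M) lay above CMV-siRE replicate 3 (717.7 in 43.81 M). The groups of both siRNA circuits thus overlapped on that scale, while the controls stayed above every library of either. EGFR was not tested under another scaling. Each organ held its own markers: in the control libraries 4 lung markers summed to 18876 to 25426 CPM in lung (values scaled to a column total of 1 M), 4 liver markers to 58926 to 104064 in liver, 4 kidney markers to 11302 to 13797 in kidney, 4 B cell markers to 1695 to 2689 in spleen and 4 thymocyte markers to 5196 to 6357 in thymus. In tumour the lung markers were 2116 to 3201 CPM in the controls, with none of the 4 absent. Replicate 4 of CMV-GE11-siRE stood apart in kidney and in thymus, with 21.3% and 25.3% of genes over 2-fold from the mean of the other 3 libraries, and so did CMV-siRE replicates 1 and 3 in tumour, with 42.5% and 52.0%. Tumours also differed in the share of values from the 13 mitochondrial genes, 20.6% ± 12.5 with CMV-GE11-siRE, 60.1% ± 11.6 with CMV-siRE and 68.6% ± 3.77 with CMV-scrR (SD, n = 4 each).

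In the control animals the machinery was most abundant in thymus and scarcest in liver. To set tissues side by side, values were rescaled to CPM, without a test because the tables were normalized separately. Thymus was the highest of the 5 organs for 9 of the 10 genes and liver the lowest for 9, and Ago4 was the exception in both. This order was common: of 12553 genes that passed the filter in every tissue, 35.9% were highest in thymus and 57.1% lowest in liver on the same scale. Leaving the mitochondrial genes out of the total kept the order of organs for all 10. The ratio of the highest to the lowest organ ran from 2.90 for Tarbp2 to 11.8 for Ago2. In bulk tissue, fewer cells of a type and less RNA per cell cannot be told apart.

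**Figure D1:**
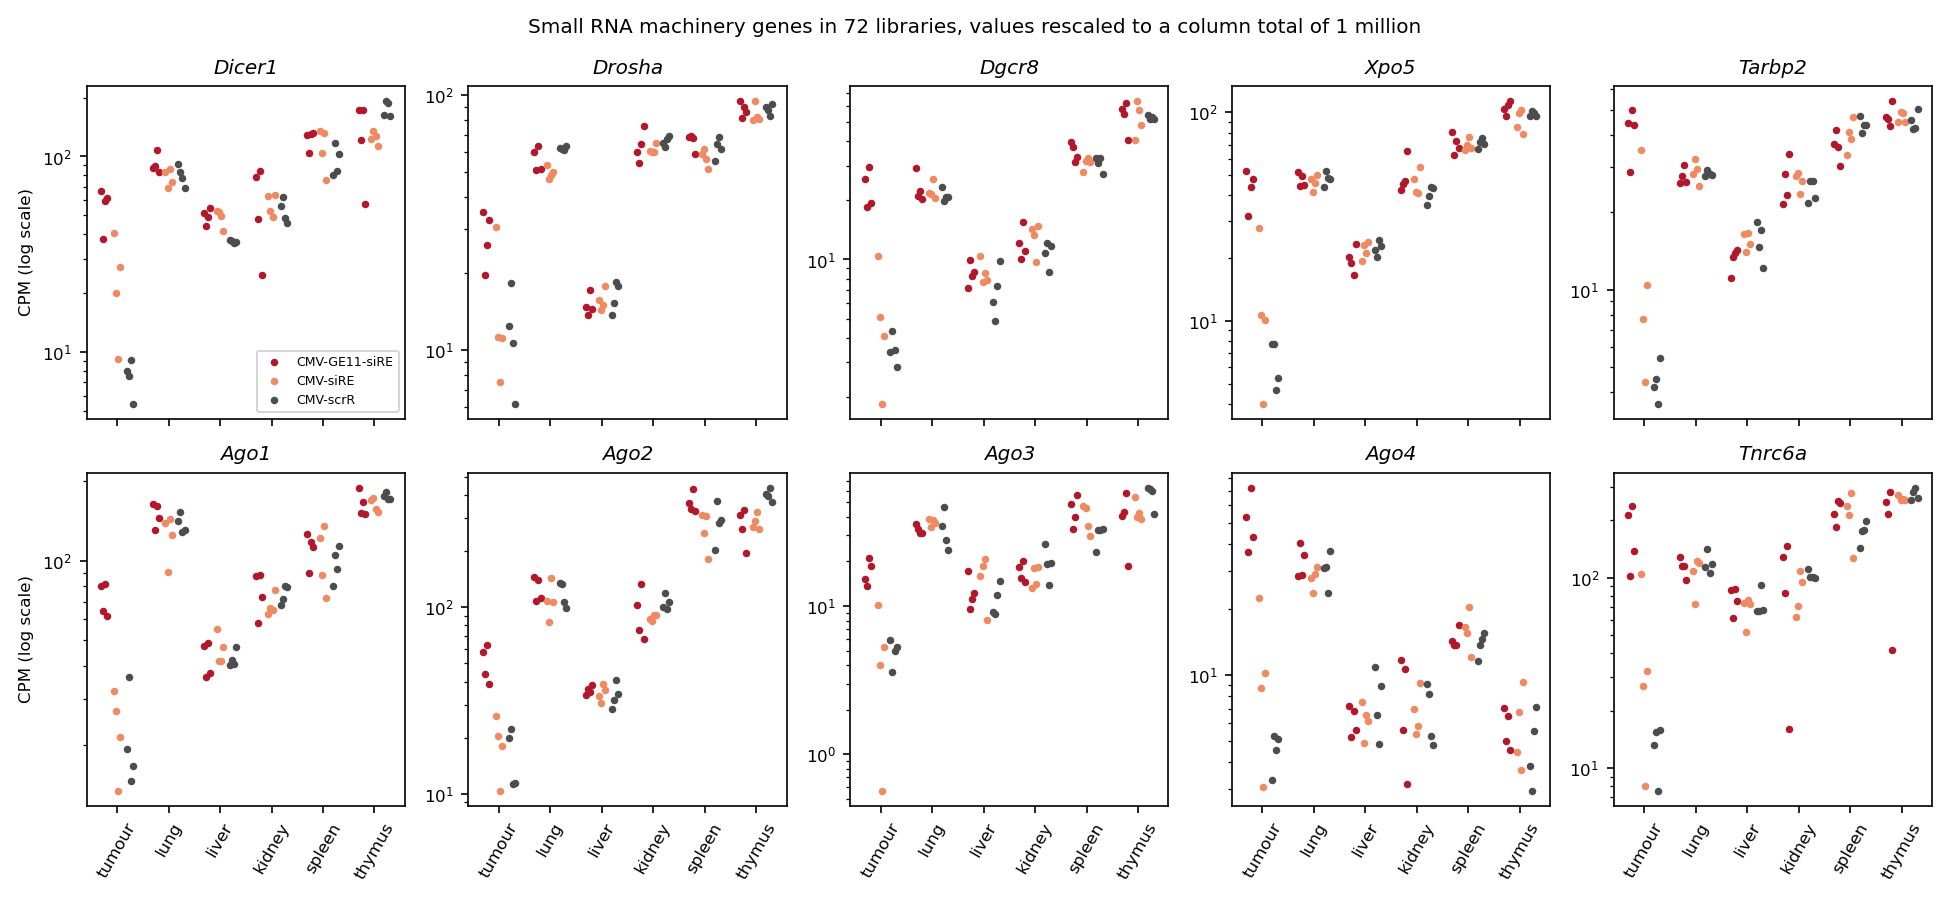
Level of each of the 10 genes in CPM (log axis) in all 72 libraries, by tissue and circuit, with 1 point a library. Thymus lies highest and liver lowest among the 5 organs for 9 genes, and Ago4 is highest in lung.

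The Microprocessor genes had unlike profiles. Drosha averaged 87.9 ± 4.18 CPM in thymus, 66.0 ± 2.98 in kidney, 62.4 ± 5.62 in spleen, 61.8 ± 0.974 in lung and 16.4 ± 2.22 in liver (SD, n = 4 each). Kidney, spleen and lung overlapped, and thymus and liver lay clear of them. Dgcr8 averaged 52.6 ± 1.19 CPM in thymus, 31.0 ± 2.67 in spleen, 21.2 ± 1.49 in lung, 10.8 ± 1.57 in kidney and 7.03 ± 2.10 in liver, and of these neighbours just kidney and liver overlapped. Kidney thus had much Drosha for its Dgcr8: the log2 ratio of Drosha to Dgcr8 in the controls was 2.62 ± 0.25 in kidney, the highest of the 6 tissues, and 0.74 ± 0.082 in thymus, the lowest.

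The genes of export and dicing had the same order of organs as Dgcr8. Xpo5 averaged 98.2 ± 2.77 CPM in thymus, 71.1 ± 3.58 in spleen, 48.2 ± 3.49 in lung, 40.8 ± 3.75 in kidney and 22.3 ± 1.80 in liver, with an overlap between lung and kidney. Dicer1 averaged 176.0 ± 16.03 CPM in thymus, 96.2 ± 16.8 in spleen, 80.5 ± 9.51 in lung, 53.1 ± 7.18 in kidney and 36.8 ± 0.544 in liver, with an overlap between spleen and lung. Its partner Tarbp2 had the narrowest range of the set, 45.1 ± 3.84 CPM in thymus, 43.7 ± 2.81 in spleen, 28.2 ± 0.630 in lung, 24.3 ± 2.47 in kidney and 15.5 ± 2.74 in liver, and thymus and spleen overlapped.

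Among the Argonautes, Ago2 set the lymphoid organs apart. Ago2 averaged 400.0 ± 28.5 CPM in thymus and 287.4 ± 69.7 in spleen, which overlapped, against 118.6 ± 18.1 in lung, 106.0 ± 9.23 in kidney and 33.9 ± 4.99 in liver. Ago1 averaged 175.3 ± 4.602 CPM in thymus, 138.3 ± 10.9 in lung, 98.2 ± 14.7 in spleen, 74.9 ± 5.92 in kidney and 42.6 ± 3.12 in liver, where spleen and kidney overlapped. Ago3 ran from 56.4 ± 9.95 CPM in thymus to 11.2 ± 2.80 in liver, and each organ overlapped the next. Ago4 had another pattern, 30.6 ± 5.40 CPM in lung, 13.9 ± 1.69 in spleen, 7.80 ± 2.64 in liver, 6.83 ± 2.13 in kidney and 4.87 ± 1.86 in thymus, and the last 3 overlapped.

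Per length of exon, which allows the 4 Argonautes to be added up, Ago2 held 55.9% ± 3.88 of their sum in spleen and 52.6% ± 1.58 in thymus, 39.8% ± 2.35 in kidney, 26.4% ± 2.13 in lung and 25.6% ± 3.82 in liver. Ago1 was the larger share in liver (55.5% ± 1.87), lung (53.5% ± 1.56), kidney (48.7% ± 4.18) and control tumours (54.5% ± 6.12, against 24.2% ± 4.45 for Ago2). Ago4 held 13.9% ± 2.59 in lung and 1.31% ± 0.547 in thymus, and Ago3 held 5.07% to 7.08% in the 6 tissues. On the same per-kilobase scale, thymus had 28.5 CPM for Ago2, 21.6 for Ago1, 21.5 for Tnrc6a, 14.8 for Drosha, 14.3 for Xpo5, 10.5 for Dicer1 and 9.91 for Tarbp2, with 6.83 for Dgcr8, 3.40 for Ago3 and 0.701 for Ago4. Liver put Tnrc6a first with 5.75 CPM per kilobase, then Ago1 with 5.25, and had 2.19 for Dicer1.

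Tnrc6a, the GW182 scaffold, averaged 273.4 ± 17.8 CPM in thymus, 173.3 ± 22.4 in spleen, 119.9 ± 15.3 in lung, 102.9 ± 5.55 in kidney and 73 ± 11.9 in liver, with an overlap between lung and kidney. In control tumours all 10 genes were low on this scale, from 3.50 CPM for Dgcr8 to 21.8 for Ago1, beside a mitochondrial share of 68.6%. With the mitochondrial genes left out of the total, tumour was the lowest tissue for 4 genes, Dicer1, Xpo5, Tarbp2 and Tnrc6a, and stood between the organs for the other 6. The part of the mitochondrial share in these levels was otherwise not tested.

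Across the 18 means of tissue and circuit, the genes with profiles most like those of Dicer1 were Rprd2 (Pearson r = 0.984), Herc2 (0.984) and Fbxl20 (0.983), on log2(CPM + 1) among 12380 genes. Among those nearest Drosha were Natd1 (0.990) and Dync1li1 (0.987), and those nearest Ago2 were Cdc5l (0.992), Nap1l4 (0.990) and Dtwd2 (0.989). Within the set, Xpo5 and Tarbp2 had r = 0.972, Ago1 and Ago3 0.964 and Dicer1 and Tnrc6a 0.958, while Ago2 and Ago4 had 0.109 and Drosha and Ago4 0.132. These are descriptions over 18 points that share tissues and the low tumour values.

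In tumour the circuits differed most. With CMV-GE11-siRE, 7 of the 10 genes differed from CMV-scrR, with 6 higher and 1 lower, by limma at an adjusted p under 0.05. The 4 libraries lay clear of the 4 controls for 5 of the 6 that were higher, against 23.7% of all genes higher without overlap, and for Drosha and Ago2, which lay lower, against 21.5%. In that comparison 41.9% of all 14044 genes tested were called, 22.1% higher and 19.8% lower. The median difference was 0.67 log2 units over the 10 genes and 0.05 over all genes.

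**Figure D2:**
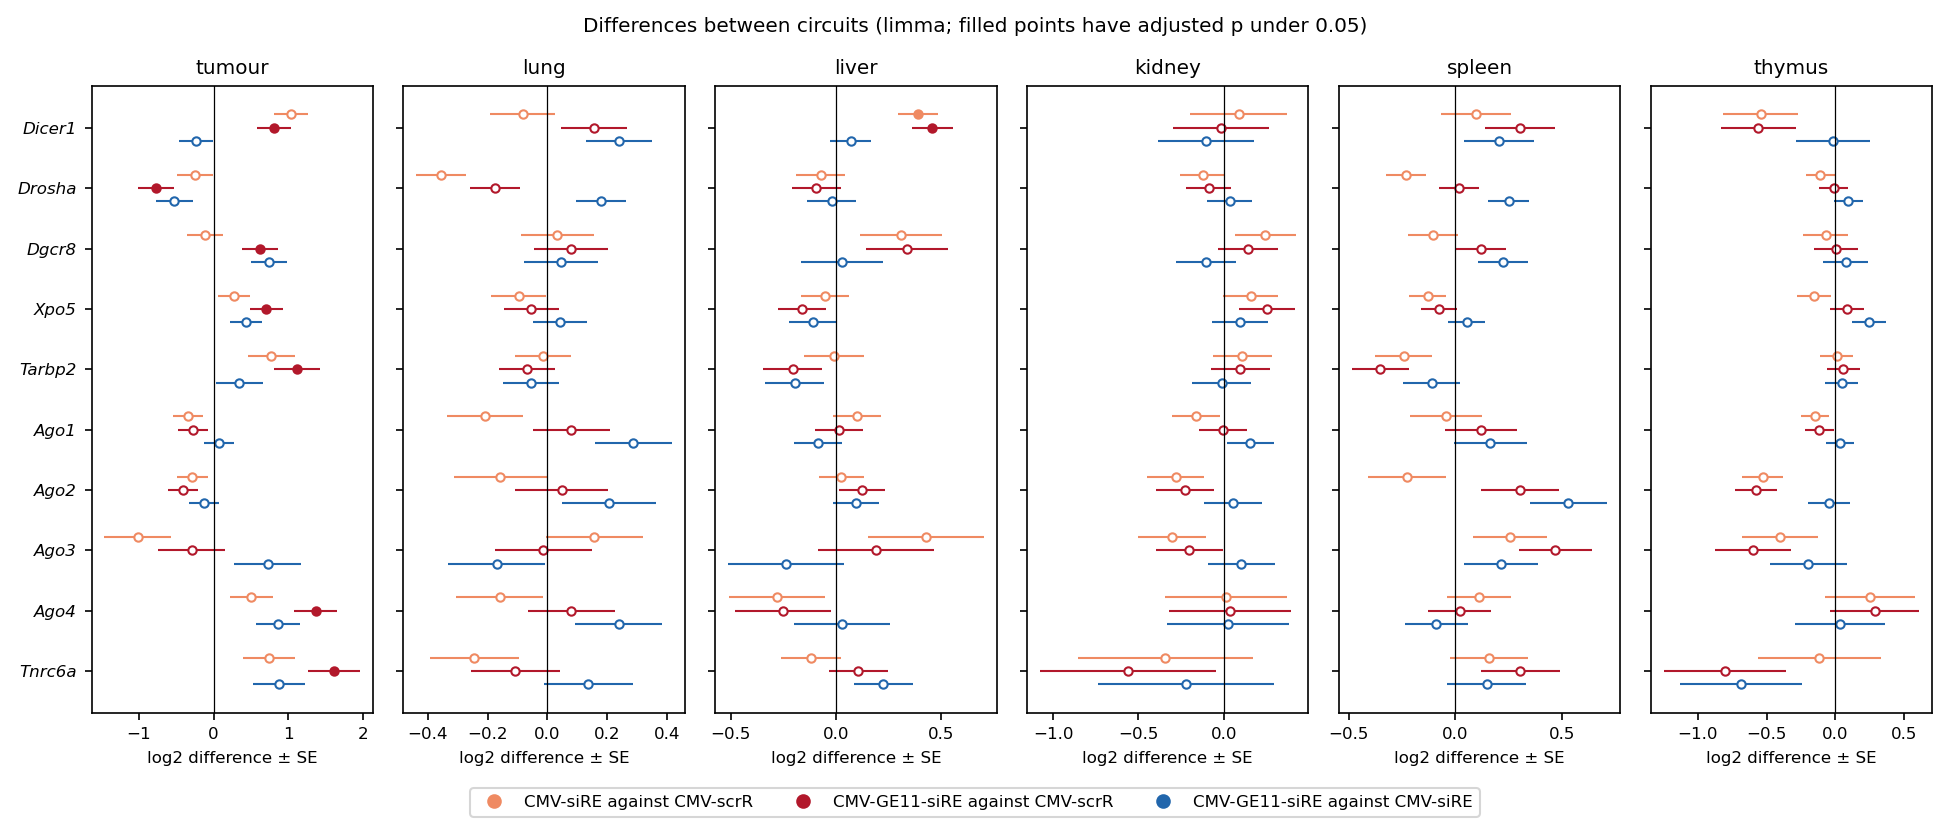
Log2 difference, with its standard error, for each gene in each tissue. The comparisons are CMV-siRE against CMV-scrR, CMV-GE11-siRE against CMV-scrR and CMV-GE11-siRE against CMV-siRE. Filled points passed limma at an adjusted p under 0.05. Against CMV-scrR these are 7 genes in tumour with CMV-GE11-siRE and Dicer1 in liver with both circuits.

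Drosha had normalized values of 204.3, 187.0, 165.1 and 215.8 in tumours given CMV-GE11-siRE, against 336.5, 387.2, 395.8 and 228.4 with CMV-scrR. All CMV-GE11-siRE libraries were below all controls, of which replicate 4 came closest. Drosha fell by 0.78 ± 0.24 log2 units (SE, limma adjusted p = 0.0206). Its partner Dgcr8 had 150.9, 174.9, 189.5 and 128.8 with CMV-GE11-siRE, against 91.0, 91.4, 129.0 and 104.9 with CMV-scrR. The lowest CMV-GE11-siRE library lay just under the highest control, so these groups touched. The difference was 0.62 ± 0.24, at the threshold itself (limma adjusted p = 0.04999), and it was no longer past it when any of 6 single libraries was left out, which were CMV-GE11-siRE replicates 1, 2 and 3 and CMV-scrR replicates 1, 2 and 4 (0.0753 to 0.139). Dgcr8 shares 825 exon bases with Trmt2a on the opposite strand, and Trmt2a was 194.6 ± 60.1 with CMV-GE11-siRE and 79.2 ± 19.6 with CMV-scrR (log2 difference 1.28, limma adjusted p = 0.00898). The sources used here do not say whether counting used strand, so reads of the shared exons cannot be told apart.

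Xpo5 rose to 308.1, 302.8, 279.5 and 318.3 with CMV-GE11-siRE, against 207.8, 164.3, 172.3 and 196.7 with CMV-scrR, with no overlap (0.71 ± 0.22, limma adjusted p = 0.0197). Without CMV-GE11-siRE replicate 1 or CMV-scrR replicate 2 its adjusted p was 0.0504 and 0.0510, and that of Drosha was 0.0622, 0.0569 and 0.0579 without CMV-GE11-siRE replicate 3, CMV-scrR replicate 2 and CMV-scrR replicate 3.

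The dicing pair rose too. Dicer1 had 390.0, 360.5, 379.9 and 409.6 with CMV-GE11-siRE, against 214.8, 159.6, 338.6 and 201.7 with CMV-scrR. The CMV-GE11-siRE libraries lay close together and above every control, replicate 3 being the highest control (0.80 ± 0.23, limma adjusted p = 0.0130). Tarbp2, which binds double-stranded RNA beside Dicer1, had 259.8, 270.7, 319.7 and 289.7, against 113.2, 95.6, 133.8 and 200.2, again with no overlap (1.12 ± 0.31, adjusted p = 0.0121).

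Ago4 and Tnrc6a had the widest differences of the set. Ago4 had 309.3, 347.0, 459.5 and 285.2 with CMV-GE11-siRE, against 89.4, 110.7, 167.4 and 188.5 with CMV-scrR, with all CMV-GE11-siRE libraries above all controls (1.37 ± 0.29, limma adjusted p = 0.00279). Tnrc6a had 1248, 962.3, 1528 and 921.5, against 354.6, 327.8, 282.1 and 583.2, also without overlap (1.61 ± 0.35, adjusted p = 0.00289). The other 3 Argonautes did not pass. Ago2 had 336.8, 415.1, 399.0 and 257.4 with CMV-GE11-siRE, against 539.1, 471.8, 419.9 and 420.6 with CMV-scrR, with no overlap (-0.41 ± 0.20, adjusted p = 0.115), and Chrac1, which shares 219 exon bases with it on the opposite strand, was 136.3 ± 18.2 against 273.2 ± 97.8. Ago1 differed by -0.28 ± 0.20 (adjusted p = 0.284) and Ago3 by -0.29 ± 0.45 (adjusted p = 0.627). The share of Ago4 in the 4 Argonautes, per length, was therefore 34.7% ± 3.67 with CMV-GE11-siRE, 23.7% ± 7.82 with CMV-siRE and 14.5% ± 4.63 with CMV-scrR.

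These directions depend on how tumour libraries are scaled. Normalized column totals were 5.87 M to 9.48 M with CMV-GE11-siRE, 12.2 M to 43.81 M with CMV-siRE and 21.16 M to 37.08 M with CMV-scrR. When values were scaled to equal column totals, the all-gene median was 2.10 log2 units higher with CMV-GE11-siRE than with CMV-scrR, with 11395 genes called higher and 59 lower, in place of 3107 and 2783, and all 10 members were higher. On that scale Drosha (1.31, limma adjusted p = 0.0144) and Ago2 (1.68, adjusted p = 0.000861) were higher than in the controls but under the median of all genes. Scaled by the total without the mitochondrial genes, the median of all genes was 0.80 higher, with 6068 genes called higher and 610 lower. The 6 genes that rose were then called higher again, from 1.38 for Dgcr8 to 2.37 for Tnrc6a, and Drosha was not called (-0.018, adjusted p = 0.966). With the mitochondrial share as a covariate, 0 members and 0 genes in all were called, and the share largely follows the circuit, so the 2 cannot be told apart.

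**Figure D3:**
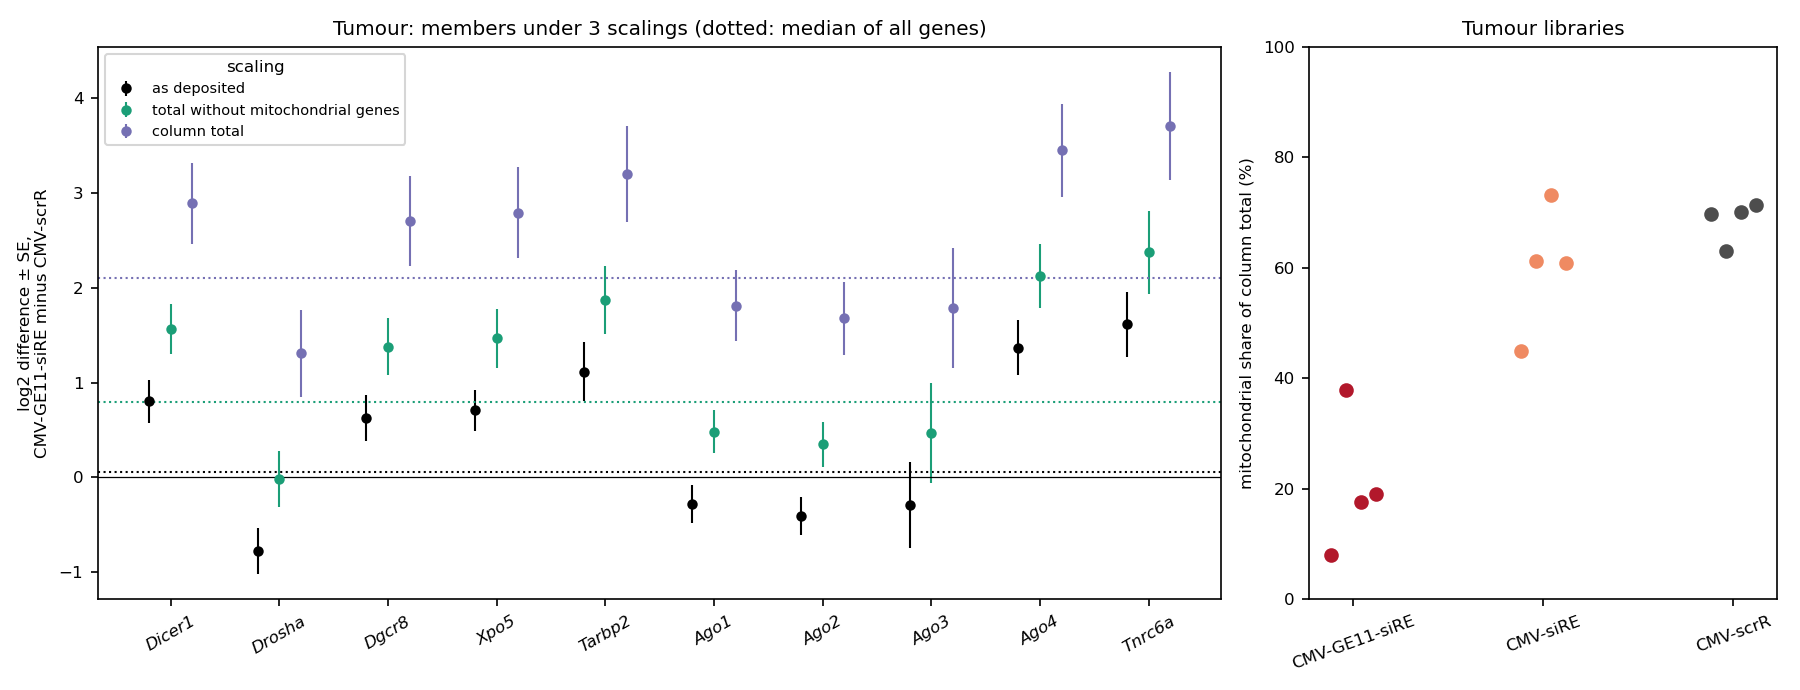
Left, log2 difference between CMV-GE11-siRE and CMV-scrR in tumour for each gene under 3 scalings, with a dotted line at the median of all genes under each (0.05, 2.10 and 0.80). Right, mitochondrial share in percent of each tumour library by circuit. Drosha is under the median of all genes and Ago4 and Tnrc6a above it under each scaling.

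Several sums of cell markers also differed between the circuits. They are in CPM, a scale on which the median of all genes was itself higher with CMV-GE11-siRE. Lung markers (Sftpc, Sftpb, Scgb1a1 and Ager) summed to 40423 to 84446 CPM in tumours given CMV-GE11-siRE, 3098 to 50963 with CMV-siRE and 2116 to 3201 with CMV-scrR, and 3 of the 4 passed the test upward. Cell cycle genes summed to 41.5 to 124.5, 6.84 to 31.2 and 9.57 to 17.4 CPM in the same order of circuits, and 1 of 4 passed upward. Macrophage markers summed to 73.2 to 143.8, 34.2 to 56.9 and 26.8 to 94.6 CPM, and 2 of 4 passed downward on the deposited scale. T cell markers summed to 17.7 to 78.4, 0.643 to 21.5 and 0.754 to 13.95 CPM, and 1 of 3 passed upward. B cell markers summed to 20.4 to 284.1, 2.10 to 11.6 and 2.12 to 7.87 CPM, and 1 of 4 passed upward. Liver markers ran the other way, at 1.51 to 2.43, 1.67 to 4.35 and 4.31 to 35.43 CPM. Fat markers overlapped between all circuits (3.07 to 16.25, 4.99 to 15.38 and 2.70 to 15.07 CPM). Erythroid markers did as well (402.9 to 953.5, 23.29 to 9012 and 26.23 to 1112 CPM). Kidney markers were at or near 0 in every circuit. The part of these cells in the differences of the 10 genes was not tested.

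In tumours given CMV-siRE the means of Drosha, Xpo5, Tarbp2, Ago2, Ago4 and Tnrc6a lay between those of the other circuits, and 0 of 10 passed limma against CMV-scrR, where 0.256% of all genes did. At an unadjusted p under 0.05 there were 3 of 10, against 21.4% of all genes. The nearest was Dicer1, with 496.5, 380.8, 403.5 and 549.9 against the same 4 controls as above, and no overlap, where 4.04% of all genes lay higher without overlap (1.04 ± 0.23, adjusted p = 0.0573). It passed without CMV-siRE replicate 2 (adjusted p = 0.0337), CMV-siRE replicate 3 (0.0307) or CMV-scrR replicate 3 (0.0459). Ago3 ran the other way, with 123.7, 75.9, 25.0 and 106.8 with CMV-siRE against 158.3, 75.6, 184.0 and 196.6 with CMV-scrR. These groups overlapped (-1.01 ± 0.45, adjusted p = 0.211), and CMV-siRE replicate 3, 1 of the libraries that stood apart, was the lowest.

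Both siRNA circuits were set against the same 4 controls, so their differences from CMV-scrR are not independent. Between them, CMV-GE11-siRE against CMV-siRE, 0 of 10 passed limma, against 0.0214% of all genes, and 4 of 10 had an unadjusted p under 0.05, against 26.2% of all genes. Groups did not overlap for 2 members, both higher with CMV-GE11-siRE, where 6% of all genes were. Dgcr8 had 150.9, 174.9, 189.5 and 128.8 with CMV-GE11-siRE, against 126.9, 96.3, 81.2 and 82.4 with CMV-siRE (0.74 ± 0.24, adjusted p = 0.0909). Ago4 had 309.3, 347.0, 459.5 and 285.2, against 275.2, 165.7, 134.9 and 207.6 (0.86 ± 0.29, adjusted p = 0.0971). Every CMV-GE11-siRE library exceeded every CMV-siRE library in both genes, by a small margin between the nearest pair. Without CMV-siRE replicate 1, which stood apart, 4 members passed, Dgcr8 (0.88), Xpo5 (0.64), Ago4 (1.04) and Tnrc6a (1.22). The share of all genes called in that fit is not given here, so this count is not read as particular to the members.

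In the 5 organs few of the genes differed by the test. Of 150 tests, 10 genes in 15 comparisons, 2 passed limma, both of them Dicer1 in liver. At an unadjusted p under 0.05 there were 12 of 150, none of them in kidney. Over all genes in the same 15 comparisons, 1.33% of tests passed and 11.9% had an unadjusted p under 0.05 (2.81% to 24.5% by comparison), so the shares of the members, 1.33% and 8%, were near or below those of all genes.

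In liver, Dicer1 had 1066, 946.9, 991.4 and 1114 with CMV-GE11-siRE, 1053, 1054, 1018 and 812.7 with CMV-siRE and 762.2, 778.1, 725.7 and 727.3 with CMV-scrR. Every library of either siRNA circuit lay above every control, and CMV-siRE replicate 4 lay nearest to them. In the CMV-GE11-siRE group Dicer1 was higher by 0.46 ± 0.096 log2 units (limma adjusted p = 0.0187) and with CMV-siRE by 0.39 ± 0.096 (adjusted p = 0.0383). That is 1 of 10 members in each comparison, where 4.23% of all 14484 genes were called with CMV-GE11-siRE, 2.19% higher, and 4.04% with CMV-siRE, 2.06% higher. Without overlap, 5.57% of all genes lay higher with CMV-GE11-siRE and 6.1% with CMV-siRE. Both use the same 4 controls. The call with CMV-siRE was lost when any 1 of 7 of the 8 libraries compared was left out, all but CMV-siRE replicate 4 (adjusted p 0.0529 to 0.114), and that with CMV-GE11-siRE was lost without its replicate 1 (0.0586). With CMV-siRE it was also lost with the replicate number as a block (0.0715), with the 8 libraries compared (0.0644) and with no filter (0.0504), while with CMV-GE11-siRE it held in these fits (0.0402, 0.0327 and 0.0242). Both calls were lost with the mitochondrial share as a covariate, at adjusted p = 0.0688 with CMV-GE11-siRE and 0.0776 with CMV-siRE.

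The other 9 genes did not pass in liver. Their differences ran from -0.25 for Ago4 to 0.34 for Dgcr8 with CMV-GE11-siRE and from -0.28 for Ago4 to 0.43 for Ago3 with CMV-siRE. Tarbp2 did not follow Dicer1, with 230.1, 286.7, 279.6 and 290.6 with CMV-GE11-siRE, 327.5, 284.3, 339.5 and 292.7 with CMV-siRE and 372.8, 309.3, 341.3 and 241.2 with CMV-scrR. Those 3 groups overlapped. Between the siRNA circuits 0 of 10 members passed limma, against 0.0069% of all genes, and 0 had an unadjusted p under 0.05, against 7.66%. Liver markers summed to medians of 79884, 77637 and 85275 CPM with CMV-GE11-siRE, CMV-siRE and CMV-scrR, and macrophage markers to 324.5, 346.6 and 467.6, with 1 of 4 lower by the test with either siRNA circuit. Cell cycle genes summed to medians of 17.98, 35.3 and 33.8 CPM, with 1 of 4 lower with CMV-GE11-siRE. Their part in the Dicer1 difference was not tested.

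**Figure D4:**
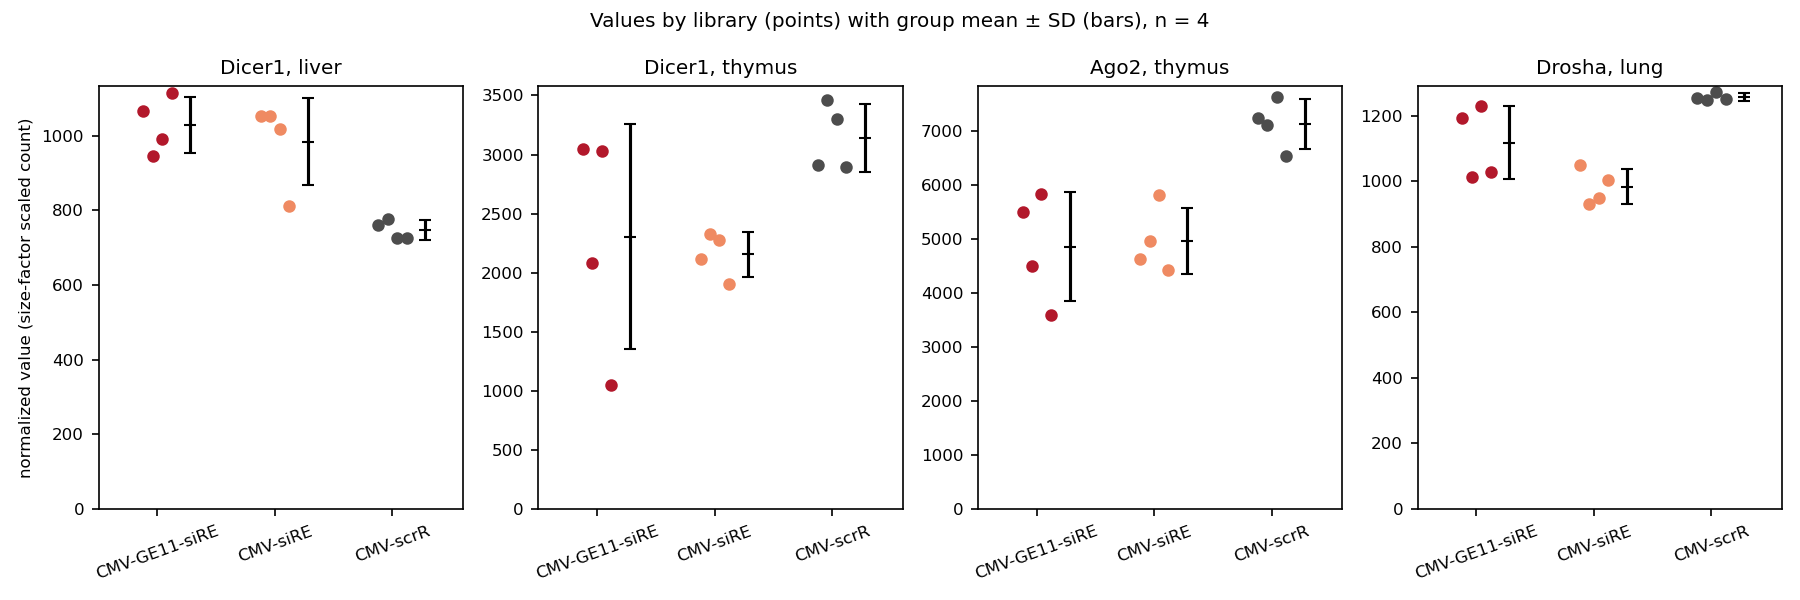
Normalized values of each library, with mean and SD by circuit, for Dicer1 in liver and thymus, Ago2 in thymus and Drosha in lung. Dicer1 in liver is above all 4 controls with both siRNA circuits, and Dicer1 and Ago2 in thymus and Drosha in lung are below all controls with CMV-siRE.

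In lung the gene that stood out was Drosha, though it did not pass. It had 1194, 1013, 1230 and 1029 with CMV-GE11-siRE, 1049, 931.5, 947.7 and 1003 with CMV-siRE and 1254, 1248, 1273 and 1250 with CMV-scrR. The controls lay within a narrow band, above every library of both siRNA circuits. The difference was -0.36 ± 0.084 with CMV-siRE (limma adjusted p = 0.0517) and -0.18 ± 0.084 with CMV-GE11-siRE (adjusted p = 0.650). With the fit restricted to the 8 libraries compared, the first passed at an adjusted p of 0.0460. In lung with CMV-siRE 0 of 10 members passed, against 1.41% of all 16165 genes, and 1 had an unadjusted p under 0.05, against 17.6%. With CMV-GE11-siRE 0 of 10 passed, as did 0% of all genes, and 0 had an unadjusted p under 0.05, against 7.9%. Drosha was the 1 member below all controls in each comparison, where 2.48% of all genes were with CMV-GE11-siRE and 7.13% with CMV-siRE. Erythroid markers summed to 795.7 to 1099 CPM in lungs given CMV-GE11-siRE, 268.5 to 473.7 with CMV-siRE and 959.4 to 1234 with CMV-scrR, with 3 of 4 lower with CMV-siRE by the test, and macrophage markers to medians of 404.0, 539.0 and 420.5, with 2 of 4 higher with CMV-siRE. Their part in the Drosha values was not tested.

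Between the siRNA circuits in lung, 0 of 10 passed, against 0.0619% of all genes, and 2 had an unadjusted p under 0.05, against 9.97% of all genes. Those were Ago1 (0.29 ± 0.13, limma adjusted p = 0.490) and Dicer1 (0.24 ± 0.11, adjusted p = 0.496). Ago1 had 3255, 2606, 3127 and 2915 with CMV-GE11-siRE, against 2748, 1801, 2807 and 2503 with CMV-siRE, and the groups overlapped. CMV-siRE replicate 2 was the lowest lung library for Drosha, Dicer1 and Ago1, and its difference from the other 3 went with exon length over all genes (r = -0.37). Without it Drosha differed from CMV-scrR by -0.33 ± 0.086 (limma adjusted p = 0.105), and Ago1 and Dicer1 differed between the siRNA circuits by 0.14 and 0.18 (adjusted p = 0.746 and 0.738).

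In thymus, the tissue richest in the machinery, Ago2 and Dicer1 were low with CMV-siRE. Ago2 had 5504, 4499, 5834 and 3603 with CMV-GE11-siRE, 4637, 4974, 5813 and 4434 with CMV-siRE and 7248, 7117, 7640 and 6538 with CMV-scrR. All 8 libraries of the siRNA circuits lay below all 4 controls. Dicer1 had 3051, 2086, 3034 and 1053 with CMV-GE11-siRE, 2114, 2330, 2277 and 1905 with CMV-siRE and 2910, 3460, 3299 and 2893 with CMV-scrR. With CMV-siRE all 4 were below the controls, while with CMV-GE11-siRE 2 libraries reached them. In the fit of all 12 libraries neither passed: with CMV-siRE Ago2 differed by -0.53 ± 0.15 and Dicer1 by -0.54 ± 0.27, each with a limma adjusted p of 0.699, and with CMV-GE11-siRE Ago2 differed by -0.58 ± 0.15 (adjusted p = 0.472). In that fit 0.00609% of all 16421 genes were called in the CMV-siRE group and 0% in the CMV-GE11-siRE group, and 1 of 10 members had an unadjusted p under 0.05 in each, against 5.65% and 9.44% of all genes. Between the siRNA circuits 0 of 10 and 0% of all genes passed, and 0 members had an unadjusted p under 0.05, against 2.81%.

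Replicate 4 of CMV-GE11-siRE widened the shared estimate of spread in thymus. There Tnrc6a was 767.4, against 4373, 3682 and 4924 in the other 3 CMV-GE11-siRE libraries, and Dicer1 was 38.7% of their mean, while Drosha was 102.6% and Tarbp2 126.1%. In kidney, replicate 4 of the same circuit had 14.7% of the others' mean for Tnrc6a and 38.5% for Dicer1, with 139.5% for Drosha and 149.6% for Tarbp2. Over all genes the difference of that library from the other 3 went with exon length, at r = -0.34 in kidney and -0.30 in thymus, which describes genes of 1 library and is not a test. Such a relation was not particular to these libraries, since CMV-siRE replicate 2 in lung had r = -0.37 and CMV-siRE replicate 4 in spleen -0.28, with far fewer genes over 2-fold from the others (1.02% and 1.12%). In a fit without it, chosen after seeing the data, Ago2 (-0.53 ± 0.10, limma adjusted p = 0.00831) and Dicer1 (-0.54 ± 0.12, adjusted p = 0.0158) were lower with CMV-siRE. That is 2 of 10 members, where 7.89% of all genes were called lower, 2.90% higher and 10.8% in either direction. With CMV-GE11-siRE 0 members and 0% of all genes passed without it, and Ago2 differed by -0.44 ± 0.11 (adjusted p = 0.302).

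Ago1 in thymus was also below all controls with CMV-siRE, by a little, at 2923, 2976, 2824 and 2579 against 3149, 3275, 3021 and 3069 (-0.15 ± 0.10, limma adjusted p = 0.699). With it, groups did not overlap for 3 of 10 members, all lower, where 11.2% of all genes were lower without overlap. With CMV-GE11-siRE it was Ago2 alone, where 5.55% of all genes were. Cell cycle genes in thymus summed to 304.9 to 2509 CPM with CMV-GE11-siRE, 1074 to 1723 with CMV-siRE and 2187 to 2369 with CMV-scrR, so the CMV-siRE libraries were below the controls here too. Thymocyte markers summed to 3679 to 5232, 3981 to 5791 and 5196 to 6357 CPM in the same order. Other lymphocyte markers ran the other way with CMV-siRE, above all controls. T cell markers summed to 1197 to 1725, 1295 to 1377 and 1099 to 1203 CPM, and B cell markers to 52.85 to 115.5, 51.22 to 102.1 and 43.75 to 51.03. The part of these cells in the values of Ago2 and Dicer1 was not tested.

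In spleen 0 of 10 members passed in any comparison, where 5.76% of all 16015 genes were called with CMV-GE11-siRE, 4.61% with CMV-siRE and 0.112% between both siRNA circuits. At an unadjusted p under 0.05 there were 2, 1 and 2 of 10 by limma, against 24.5%, 20.9% and 9.79% of all genes. Ago3 had 908.8, 664.9, 756.9 and 1054 with CMV-GE11-siRE, against 485.8, 662.0, 646.6 and 630.5 with CMV-scrR, without overlap by a narrow gap, as 6.37% of all genes were (0.47 ± 0.17, adjusted p = 0.116). Drosha had 1095, 1123, 1045 and 975.7 with CMV-siRE, against 1155, 1306, 1363 and 1164 with CMV-scrR, and again each CMV-siRE library was below each control, as for 7.06% of all genes (-0.23 ± 0.095, adjusted p = 0.181). Ago2 had 6719, 6772, 8117 and 6222 with CMV-GE11-siRE, against 5790, 4597, 5744 and 3453 with CMV-siRE, without overlap, as 2.91% of all genes were (0.53 ± 0.18, adjusted p = 0.357). Against CMV-scrR, whose values of 4217, 7556, 5630 and 5540 are spread widely, neither circuit passed for Ago2. Erythroid markers summed to 9143 to 17721 CPM in spleens given CMV-GE11-siRE, 2208 to 5701 with CMV-siRE and 14752 to 20186 with CMV-scrR, and 3 of 4 were lower with CMV-siRE than with either of the other circuits by the test. Cell cycle genes summed to 1199 to 1888 CPM with CMV-GE11-siRE, against 822.1 to 1114 with CMV-siRE, and B cell markers to 2115 to 2281, against 2421 to 2905, both without overlap, though 0 of 4 in either list passed. The part of these cells in the spleen values was not tested.

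In kidney 0 of 10 members passed limma in any comparison, and 0% of all 15105 genes were called. At an unadjusted p under 0.05 there were also 0 of 10 in each, against 8.06% of all genes with CMV-GE11-siRE, 9.84% with CMV-siRE and 3.97% between the siRNA circuits. Ago2 with CMV-siRE, at 1511, 1618, 1757 and 1548 against 1864, 2124, 1854 and 1976 with CMV-scrR, was the 1 member whose groups did not overlap (-0.28 ± 0.17, adjusted p = 0.583), where 10.1% of all genes were lower without overlap. The standard errors there reached 0.51 log2 units for Tnrc6a, with the deviating replicate 4 in the fit. Without that library 0 members were called in kidney, against 0% of all genes with CMV-GE11-siRE and 0.245% with CMV-siRE.

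Whether a member's difference between circuits was itself different in 2 tissues was tested by 450 exact two-sided permutation tests, in which circuits were exchanged within each tissue, independently of the other tissue. The smallest p they allow is 0.000408, and 4 tests would have to reach it for any to pass after Benjamini-Hochberg adjustment. It was reached by 2, both for Dicer1 with CMV-siRE against CMV-scrR: the difference was 0.39 in liver and -0.54 in thymus, and 1.04 in tumour and -0.54 in thymus (adjusted p = 0.0918 for each by exact permutation). Thus 0 of 450 passed, and 63 had an unadjusted p under 0.05, a count for which no share over all genes was computed. The labels repeat the same library codes in every tissue, so libraries of 2 tissues may come from the same animals. Circuits would then have to be exchanged together in both tissues, and the p-values given here may be too small.

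Ratios of partner genes within a library do not change with its scaling, so they were tested as well, by two-sided exact permutation of 4 against 4 libraries, where the smallest possible p is 0.0286. Of 54 tests, 9 had groups that did not overlap (p = 0.0286 each by exact permutation), and 0 passed after adjustment (adjusted p = 0.171 for each of the 9). Far more than 9 tests would have had to reach the smallest p for any to pass, so this result cannot show that the ratios were alike. If circuit labels were arbitrary, a test would give no overlap with a probability of 0.0286. The share for ratios of other gene pairs was not computed, so the 9 are not read as particular to these pairs. The widest of the 9 was the Microprocessor pair in tumour. The log2 ratio of Drosha to Dgcr8 was 0.44, 0.10, -0.20 and 0.75 with CMV-GE11-siRE, against 1.89, 2.08, 1.62 and 1.12 with CMV-scrR, a difference of -1.41 with group means of 0.27 ± 0.41 and 1.68 ± 0.42 (SD, n = 4 each). All CMV-GE11-siRE libraries lay below all controls, and also below all CMV-siRE libraries (1.54 ± 0.36), a difference of -1.27. Dgcr8 shares 825 exon bases with Trmt2a, which was 1.28 log2 units higher with CMV-GE11-siRE than with CMV-scrR. Whether counting used strand is not known, and the part of shared reads in this ratio was not tested. In lung the same ratio was 1.16 ± 0.17 with CMV-siRE and 1.55 ± 0.10 with CMV-scrR.

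The ratio of Dicer1 to Tarbp2 did not overlap in 3 comparisons. In liver it was 1.93 ± 0.21 log2 units with CMV-GE11-siRE and 1.26 ± 0.26 with CMV-scrR. In thymus it was 1.41 ± 0.067 with CMV-siRE and 1.96 ± 0.24 with CMV-scrR, and in lung 1.74 ± 0.069 with CMV-GE11-siRE and 1.44 ± 0.23 with CMV-siRE. The exons differ in length, 16750 bases in Dicer1 and 4549 in Tarbp2. In CMV-GE11-siRE replicate 4, whose difference went with exon length, the ratio was -0.44 in kidney and 0.084 in thymus. In CMV-siRE replicate 2 of lung it was 1.09, the lowest of its group. The part of exon length in this ratio was not tested. The ratio of Ago2 to Ago1 in thymus was 0.73 ± 0.26 with CMV-GE11-siRE, 0.81 ± 0.16 with CMV-siRE and 1.19 ± 0.11 with CMV-scrR, so Ago2 was low for its paralogue with both siRNA circuits, without overlap. In spleen it was 1.71 ± 0.21 with CMV-GE11-siRE and 1.35 ± 0.13 with CMV-siRE.

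**Figure D5:**
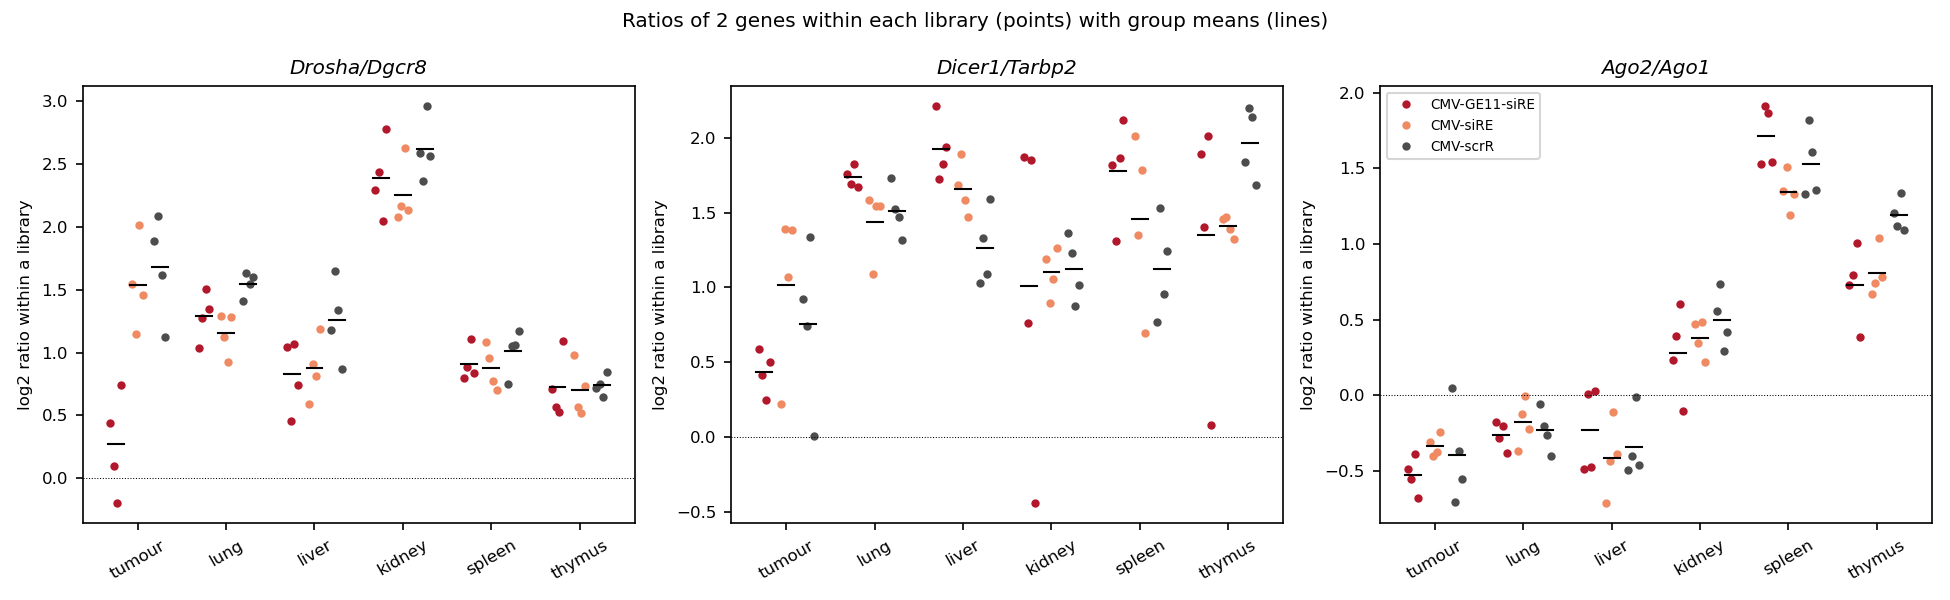
Log2 ratios within a library of Drosha to Dgcr8, Dicer1 to Tarbp2 and Ago2 to Ago1, by tissue and circuit, with 1 point a library. The tumour libraries given CMV-GE11-siRE have the lowest ratios of Drosha to Dgcr8 in tumour, at -0.20 to 0.75.

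Other genes of the pathway were read from lists of cofactors. In tumour, CMV-GE11-siRE against CMV-scrR, 5 of 9 Microprocessor and nuclear cofactors were higher and 0 lower by limma (median 0.74), among them Srrt, which escorts primary transcripts from the cap to the Microprocessor, at a mean of 1942 against 439.0 (2.16, adjusted p = 0.000927). Of 6 chaperones that load Argonautes, 0 were higher and 2 lower (median -0.59), among them Cdc37, a co-chaperone of Hsp90, at 387.2 against 1656 (-2.15, adjusted p = 0.000580). Of 10 GW182 paralogues and Argonaute partners, 3 were higher and 2 lower (median 0.47), and Tsnax, a subunit of the passenger-strand nuclease C3PO, was 393.6 against 875.2 (-1.17, adjusted p = 0.00102). Of 17 deadenylation, decapping and decay genes, 4 were higher and 3 lower (median -0.19), with Pabpc1, which coats poly(A) tails, at 2769 against 6132 (-1.14, adjusted p = 0.000630). Of 4 tested let-7 and tailing factors 2 were higher and 1 lower, and the 1 PIWI gene tested did not pass. Beside these counts stand the 22.1% higher and 19.8% lower of all genes. The downward calls depend on the scaling: by column total Pabpc1 (0.95) and Tsnax (0.92) were higher, and no gene of these lists was lower, while without the mitochondrial genes Cdc37 remained lower (-1.39, adjusted p = 0.00202) and Srrt higher (2.92, adjusted p = 0.000646). In the other 2 tumour comparisons 0 genes of any of these lists passed.

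In liver 3 of 46 tested cofactors passed with CMV-GE11-siRE and 2 of 46 with CMV-siRE, against 4.23% and 4.04% of all genes, and in spleen 3 of 49 and 2 of 49, against 5.76% and 4.61%. In liver Mov10, an RNA helicase that binds Argonautes, averaged 968.4 with CMV-GE11-siRE and 983.7 with CMV-siRE, against 1373 with CMV-scrR (-0.50 and -0.48, limma adjusted p = 0.0250 and 0.0296). Tnrc6b, a paralogue of Tnrc6a, averaged 1055 with CMV-GE11-siRE, against 633.3 with CMV-scrR (0.71, adjusted p = 0.0166). Hspa8, the constitutive Hsp70 chaperone, was 11490 against 20612 in liver (-0.79, adjusted p = 0.0474) and 25434 against 43027 in spleen (-0.75, adjusted p = 0.0124), with CMV-GE11-siRE against CMV-scrR. Adar, which edits double-stranded RNA, was lower with CMV-siRE in liver (822.4 against 1377, -0.71, adjusted p = 0.0393) and in spleen (3396 against 4929, -0.53, adjusted p = 0.0427), and Mov10 was lower with CMV-siRE in spleen too (928.6 against 1481, -0.63, adjusted p = 0.0369). Scaled by the column total, which raised the median of all genes by 0.10 with CMV-siRE in spleen, the spleen calls of Adar and Mov10 and the liver call of Adar did not pass (adjusted p = 0.0678, 0.0537 and 0.0564). In spleen Pan3 (3281 against 1966, 0.75, adjusted p = 0.0326) and Cnot6 (3332 against 2454, 0.45, adjusted p = 0.0329), of the deadenylases that GW182 proteins recruit, were higher with CMV-GE11-siRE than with CMV-scrR. No listed cofactor passed in lung, kidney or thymus.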

How the data were processed

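RNA was extracted with TRIzol and made into TruSeq RNA libraries, per the labels' protocols. DESeq2, without a version, is the tool named in the submitters' processing notes; the sources used here name no aligner, counter, strand setting, build or annotation. The deposited signal values are gene counts that the authors divided by size factors, in 1 table a tissue; 50.3% to 72.6% of low values in a library were whole multiples (within 0.1) of its smallest recurring step, so counts were not recovered. Identifiers were matched to GENCODE M21. Libraries were grouped by the circuit and tissue in the labels.

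Values were tested with limma 3.58.1 (limma-trend, R 4.3.3) on log2(value + 1), for genes with at least 10 in at least 4 of 12 libraries. The fit held all 12 libraries of a tissue with 1 mean a circuit, and Benjamini-Hochberg adjustment was made over all genes tested, with calls at 0.05. Fold changes on this scale understate the change of low genes. No counting interval was given, as the files hold no counts. Scripts were tested on simulated data. The 10 genes, the lists and the rule for named cofactors (up to 4 a comparison that passed, by smallest p) were chosen with earlier results of these data known. Of the genes with the likest profiles, 1 is not reported here. Alternatives were a pseudocount of 0.1, no filter, 8 libraries, a replicate block, 2 other scalings, the mitochondrial share as a covariate and leaving out each library; the fits that leave CMV-GE11-siRE replicate 4 out of kidney and thymus were chosen after seeing the data.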

Additional observations from a re-analysis of the deposited data

Results flagged for a closer look

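In 6 of 180 groups of 4 libraries, 1 library's gap to the nearest of the others, over the range of the group and both taken on log2(value + 1), was above Dixon's 95% critical value for 4 libraries, where chance gives about 1 in 20 groups. On the linear scale 4 groups were, 2 of them among these 6. Dicer1 in liver with CMV-siRE was 812.7 in replicate 4 and 1018 to 1054 in the others. Tarbp2 in liver with CMV-GE11-siRE was 230.1 in replicate 1 and 279.6 to 290.6 in the others. Dgcr8 in kidney with CMV-siRE was 187.0 in replicate 3 and 249.3 to 257.2 in the others. Ago3 with CMV-scrR was 485.8 in replicate 1 of spleen, with 630.5 to 662.0 in the others, and 742.3 in replicate 4 of thymus, with 1053 to 1120 in the others. Tnrc6a in thymus with CMV-GE11-siRE was 767.4 in replicate 4 and 3682 to 4924 in the others.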

How the results depend on the processing

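Counts of members called depended on the processing mainly in tumour. Most of the alternative fits below stand without the share of all genes called in them. Such counts are not read as particular to the members. For CMV-GE11-siRE against CMV-scrR, 7 were called, 0 when the mitochondrial share was a covariate and 4 to 7 with 1 library left out (4 without CMV-scrR replicate 2). For CMV-GE11-siRE against CMV-siRE, 0 were called, 10 when scaled by the column total, 4 when scaled without mitochondrial genes, and 0 to 4 with 1 library left out (4 without CMV-siRE replicate 1). For CMV-siRE against CMV-scrR, 0 were called in tumour and 0 to 1 with 1 library left out. The lung count with CMV-siRE went to 1 with only the 8 libraries compared. The liver count of 1 with CMV-siRE went to 0 with no filter (adjusted p = 0.0504), 8 libraries (0.0644), the replicate block (0.0715) and the mitochondrial covariate, and was 0 to 1 with 1 library left out; with CMV-GE11-siRE it went to 0 with the covariate and was 0 to 1 with 1 left out. In thymus 0 went to 2 with CMV-siRE with 8 libraries, the covariate, or without CMV-GE11-siRE replicate 4 (0 to 2), and to 2 with CMV-GE11-siRE with the covariate. The ratios without overlap were 9, and 12 to 14 with 1 replicate number left out, where 3 libraries a group overlap less easily. Directions turned in tumour with CMV-GE11-siRE for Drosha (1.31) and Ago2 (1.68) by column total, Ago2 without mitochondrial genes (0.35) and with the covariate (0.22), and Tnrc6a with the covariate (-0.014), and for Ago3 in spleen with CMV-GE11-siRE with the covariate (-0.034); the cause was not tested. Same-numbered libraries did not deviate together (correlations -0.31 to 0.33, over 0.1 for every number in 0 comparisons), so the numbers were not read as pairs; the replicate block also ended the Dgcr8 call in tumour (adjusted p = 0.0761), as did no filter (0.0637). With 4 libraries a group and no counts, spread between libraries sets the limit of detection.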
